A study of Arabidopsis thaliana with 6 samples.

Results

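The sequences of ath-miR164, ath-miR169, ath-miR170, ath-miR171, ath-miR172 and ath-miR394 were followed through small RNA libraries of *Arabidopsis* rosette leaves. These are conserved miRNAs that act on regulators of development. All entries carrying one of these family names were taken, with all copies and both arms of each hairpin. That gave 25 of the 349 mature sequences in the table. The study compared 3 genotypes, all in the Col-0 ecotype and grown in soil to an age of 3 weeks, with 2 biological replicates each. WT was the unmutated Col-0 control. The hyl1-2 mutant lacks HYL1, and the snrk2.2/3/6 triple mutant lacks the 3 subgroup III SnRK2 kinases, which are activated by the hormone abscisic acid. Each mutant genotype was represented by a single line, no plants were treated, and the comparisons ask how far miRNA accumulation depends on HYL1 and on these kinases. A table of mature miRNAs holds no transcript of HYL1 or of the kinases and no marker of leaf cells, so neither the mutations nor the tissue could be checked in it.

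Plant miRNAs are cut from hairpin transcripts by the RNase III enzyme DCL1, which works with the zinc finger protein SERRATE and with HYL1, a double-stranded RNA-binding protein. Cutting leaves a duplex of a 5p and a 3p strand. Usually one strand, the guide, is loaded into ARGONAUTE1 and the other is degraded. In plants a guide pairs with its target mRNA along nearly its whole length, and the mRNA is cleaved or its translation is blocked. miR164 restrains NAC transcription factors such as CUC1 and CUC2, which set organ boundaries, and NAC1, which acts in lateral root formation. miR169 acts on NF-YA subunits of the CCAAT-binding complex, miR170 and miR171 act on the GRAS-domain HAM (SCL) proteins of shoot meristems, and miR172 acts on AP2-like repressors of flowering. miR394 acts on LCR, an F-box protein whose repression keeps stem cells competent in the shoot meristem.

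The sequences that carried nearly all reads are shown first, as the deposited table writes them (T for U), 5′ to 3′, with bases 2 to 8 (the seed) in capitals. The first pair shares its seed and differs only at the last base.
miR164a/miR164b-5p: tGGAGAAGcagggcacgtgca
miR164c-5p: tGGAGAAGcagggcacgtgcg
The next 2 belong to the MIR169f hairpin. The 3p strand was read and the 5p strand, which is the known guide for NF-YA mRNAs and is shared by 4 MIR169 genes, was not.
miR169f-3p: gCAAGTTGaccttggctctgc
miR169d/miR169e/miR169f-5p/miR169g-5p: tGAGCCAAggatgacttgccg
The miR170 and miR171 sequences follow, because miR171b-3p/miR171c-3p is offset from the other 3p strands and has another seed, while miR171a-3p and miR170-3p share theirs.
miR170-5p/miR171a-5p: tATTGGCCtggttcactcaga
miR171a-3p: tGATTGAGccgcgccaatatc
miR170-3p: tGATTGAGccgtgtcaatatc
miR171b-3p/miR171c-3p: tTGAGCCGtgccaatatcacg
miR171c-5p: aGATATTGgtgcggttcaatc
The last 2 are the guides of AP2-like and LCR mRNAs.
miR172a/miR172b-3p: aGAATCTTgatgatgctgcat
miR394a/miR394b-5p: tTGGCATTctgtccacctcc

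Positions were obtained by exact matching to TAIR10.1 with its RefSeq annotation, since the table gives none. miR164a/miR164b-5p lies in MIR164a (AT2G47585, chromosome 2, 19520770 to 19520790, plus strand) and in MIR164b (AT5G01747, chromosome 5, 287586 to 287606, plus strand). miR164c-5p lies in MIR164c (AT5G27807, chromosome 5, 9852684 to 9852704, plus strand). miR169f-3p has a single position, in MIR169f (AT3G14385, chromosome 3, 4805713 to 4805733, minus strand). miR170-5p/miR171a-5p lies in MIR171a (AT3G51375, chromosome 3, 19073452 to 19073472, plus strand) and in MIR170 (AT5G66045, chromosome 5, 26411635 to 26411655, minus strand). miR171b-3p/miR171c-3p lies in MIR171b (AT1G11735, chromosome 1, 3961367 to 3961387, minus strand) and MIR171c (AT1G62035, chromosome 1, 22930095 to 22930115, minus strand). miR172a/miR172b-3p lies in MIR172a (AT2G28056, chromosome 2, 11942918 to 11942938, minus strand) and MIR172b (AT5G04275, chromosome 5, 1188211 to 1188231, minus strand). miR394a/miR394b-5p lies in MIR394a (AT1G20375, chromosome 1, 7058207 to 7058226, plus strand) and MIR394b (AT1G76135, chromosome 1, 28568821 to 28568840, plus strand). A sequence listed for several genes is counted once, so the reads of its copies cannot be told apart. miR171a-3p had 4 matches. One is its own gene MIR171a (chromosome 3, 19073521 to 19073541), and the other 3 lie on the strand opposite the coding exons of HAM1, HAM2 and HAM3, where its target sites are.

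Both strands of the MIR169f and MIR171a hairpins are shown in capitals, because the balance of their strands is described below. MIR169f spans chromosome 3, 4805684 to 4805850, on the minus strand, and MIR171a spans chromosome 3, 19073434 to 19073556, on the plus strand.
MIR169f: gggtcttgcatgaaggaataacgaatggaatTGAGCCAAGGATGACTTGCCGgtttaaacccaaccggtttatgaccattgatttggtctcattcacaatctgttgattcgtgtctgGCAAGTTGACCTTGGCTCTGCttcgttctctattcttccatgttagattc
MIR171a: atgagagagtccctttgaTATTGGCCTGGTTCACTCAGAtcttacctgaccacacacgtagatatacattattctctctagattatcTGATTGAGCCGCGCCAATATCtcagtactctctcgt
One target site per family is given below with the bases that pair with the miRNA in capitals, and mismatched or G:U bases in lower case. All 5 sites lie within a single exon, that of NF-YA5 in the 3′ UTR and the others in coding sequence. The target mRNAs were not measured in these libraries.
CUC2 (AT5G53950), miR164a/miR164b-5p, 18 of 21 bases paired: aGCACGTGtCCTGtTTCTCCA
NF-YA5 (AT1G54160), miR169a-5p, 18 of 21 bases paired: aCGGgAAGTCATCCTTGGCTa
HAM3 (SCL6, AT4G00150), miR171a-3p, 21 of 21 bases paired: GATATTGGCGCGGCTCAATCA
TOE2 (AT5G60120), miR172a/miR172b-3p, 20 of 21 bases paired: ATGCAGCATCATCAgGATTCT
LCR (AT1G27340), miR394a/miR394b-5p, 19 of 20 bases paired: GGAGGTtGACAGAATGCCAA

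The libraries held between 16041013 and 19601046 genome-matched small RNA reads, of which between 6670 and 34567 were reads identical to a mature miRNA. Levels are given in RPTM, reads per 10000000 genome-matched reads. Relative to WT, the sum of all miRNAs was at 18.3% in hyl1-2 and at 59.4% in snrk2.2/3/6, where replicate 2 stood apart with 10386 miRNA reads against 29014 in replicate 1. A floor of 3 reads is 1.53 to 1.87 RPTM. Floors and intervals cover counting error only. The edgeR p-values set a difference between genotypes against a spread estimated over all 6 libraries and partly shared across sequences. In bulk tissue, fewer cells that make a miRNA and less miRNA per cell cannot be told apart. Because only identical reads were counted, a read that is one base longer or shorter than the listed sequence is missing from it, and 0 reads means 0 identical reads.

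The 25 sequences had 1054 reads in all. Of these, 448 and 294 were in the WT libraries, 67 and 41 in those of hyl1-2 and 137 and 67 in those of snrk2.2/3/6 (replicates 1 and 2). Both libraries of each mutant were below both WT libraries. Summed, the level was 227 ± 66.2 RPTM in WT (SD, n = 2), 28.2 ± 8.41 in hyl1-2 and 61.4 ± 27.8 in the triple mutant, or 12.4% and 27.0% of WT. Of the 25 sequences, 16 had at least 1 read, 9 had at least 10 reads over the 6 libraries and are described one by one, and 4 reached the mean of 10 reads required for testing. A further 7 had between 1 and 6 reads in all, and 9 had 0 reads throughout. In WT the 9 described ranked between 20 and 112 among the 349 sequences by mean level.

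**Figure D1:**
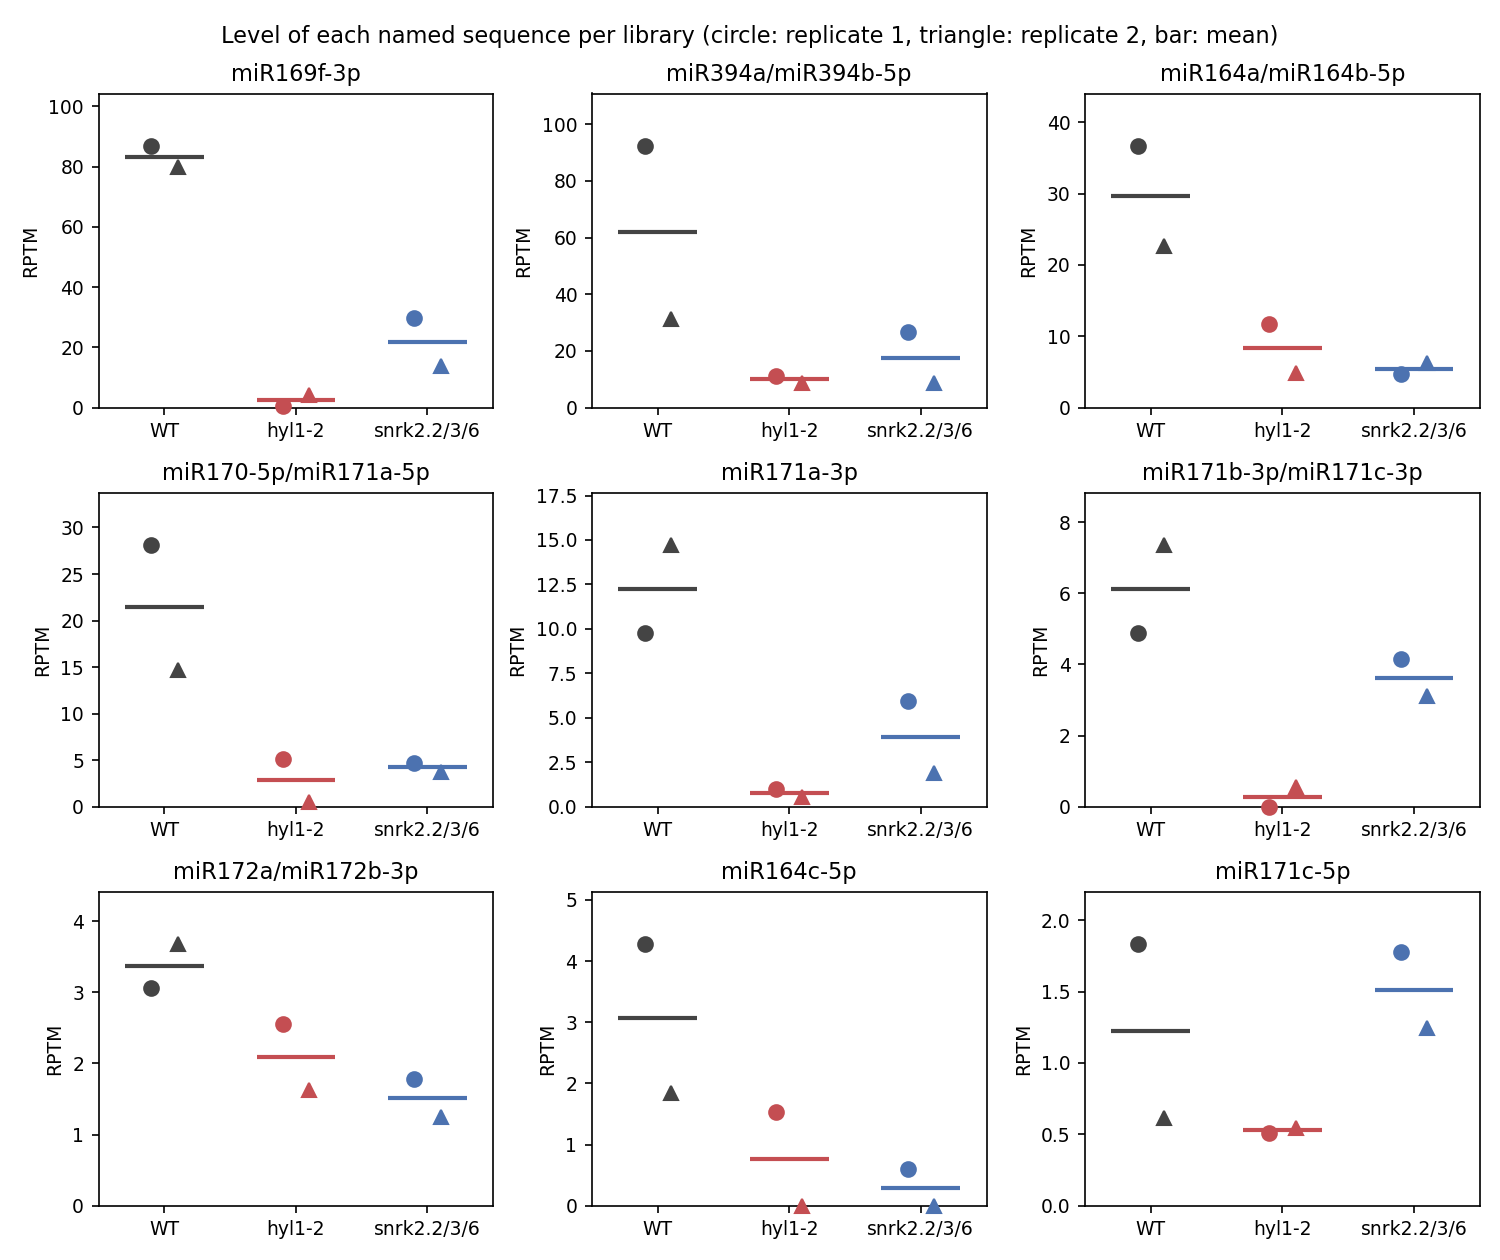
Level in RPTM (y axis, linear from 0, a scale of its own in each panel) of the 9 sequences with at least 10 reads, by genotype. Circles are replicate 1, triangles replicate 2 and bars the mean of 2 libraries. miR169f-3p stands at 86.8 and 79.8 RPTM in WT and at 0.51 and 4.35 in hyl1-2, and the panels of the last row hold 11 to 24 reads in total.

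miR164 was represented by its 5p guide, and the guide was low in both mutants. miR164a/miR164b-5p had 60 and 37 reads in WT, 23 and 9 in hyl1-2, and 8 and 10 in the triple mutant. Both WT libraries were above all 4 mutant libraries, and the mutants overlapped each other. The mean level was 29.7 ± 9.90 RPTM in WT, with 8.31 ± 4.84 in hyl1-2 and 5.49 ± 1.06 in the triple mutant. It was the sequence of this group with the lowest percentage of WT in snrk2.2/3/6 among those with at least 10 RPTM in WT, at 18.5%, and the one with the highest in hyl1-2, at 28.0%. By edgeR's quasi-likelihood test, which was fitted over all 6 libraries and adjusted over 59 sequences, neither decrease passed. The log2 fold change was -1.82 (SE 0.89, adjusted p = 0.0538) in hyl1-2 and -2.42 (SE 0.92, adjusted p = 0.141) in snrk2.2/3/6. In hyl1-2 it passed in the fits that left out snrk2.2/3/6 replicate 1 (edgeR adjusted p = 0.0439) or replicate 2 (0.0407), and over the 18 settings its adjusted p ranged from 0.0196 to 0.511.

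The copy from MIR164c, which differs from the others by A21G counted from the 5′ end, was rarer. miR164c-5p had 7 and 3 reads in WT, 3 and 0 in hyl1-2, and 1 and 0 in the triple mutant. Its ratio to WT, from pooled reads with a 95% counting interval, was 25.8% (4.56 to 100.1%) in hyl1-2 and 9.91% (0.23 to 69.7%) in snrk2.2/3/6. The counts are too few to place these ratios closer. The shared 5p sequence made up 83.3% of miR164 reads in WT replicate 1 (95% Wilson interval 73.1 to 90.2%) and 86.1% (72.7 to 93.4%) in replicate 2. The passenger strands miR164b-3p and miR164c-3p had 5 and 3 reads over the 6 libraries, all of them in WT. In hyl1-2 replicate 1, the mutant library with most miR164 reads, 0 of 26 reads were 3p, which allows a share of up to 11.5%, and the share in WT was 6.94% and 6.98%. A difference in strand balance was therefore not detectable at this depth.

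miR169 was seen almost entirely as the 3p strand of MIR169f, which had the lowest level relative to WT in hyl1-2 among the 5 sequences with at least 10 RPTM in WT. miR169f-3p had 142 and 130 reads in WT, 1 and 8 in hyl1-2, and 50 and 22 in the triple mutant. The 3 genotypes did not overlap, with WT highest and hyl1-2 lowest. The mean level was 83.3 ± 5.01 RPTM in WT, with 2.43 ± 2.71 in hyl1-2 and 21.7 ± 11.2 in the triple mutant, or 2.91% and 26.0% of WT. The decrease in hyl1-2 had a log2 fold change of -5.07 (SE 1.11, edgeR adjusted p = 7.2e-05). It passed in each of the 6 fits that left out a library. Its fold change was -4.24 without hyl1-2 replicate 1 and -7.16 without hyl1-2 replicate 2. In snrk2.2/3/6 the log2 fold change was -1.94 (SE 0.92), which did not pass (edgeR adjusted p = 0.252). Of all 357 miR169 reads, 353 were miR169f-3p, or 98.9% (95% Wilson interval 97.2 to 99.6%).

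The known miR169 guides had 2 reads in all. The 5p strand shared by MIR169d to MIR169g, which includes the partner of miR169f-3p, had 0 reads against 353 for the 3p strand, which allows a share of up to 0.85%. The seven-gene guide miR169h/miR169i/miR169j/miR169k/miR169l/miR169m/miR169n and the guide miR169a-5p had 1 read each, both in WT replicate 1. miR169b-5p/miR169c, miR169a-3p and miR169g-3p had 0 reads, and miR169b-3p had 2 reads, both in snrk2.2/3/6 replicate 2. These values concern identical reads. They do not show how much of the guide is present with other ends.

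The miR170 and miR171 sequences come in part from the same hairpins, and were lower in hyl1-2 on both strands of MIR171a. miR170-5p/miR171a-5p had 46 and 24 reads in WT, 10 and 1 in hyl1-2, and 8 and 6 in the triple mutant. Both WT libraries were above all mutant libraries, and the mutants overlapped. Its mean over the 6 libraries reached the limit for the test only with the WT reads. Its mean level was 21.4 ± 9.48 RPTM in WT, with 2.82 ± 3.22 in hyl1-2 and 4.24 ± 0.704 in the triple mutant. The log2 fold change from WT was -2.88 (SE 1.02, edgeR adjusted p = 0.0108) in hyl1-2, and -2.32 (SE 0.996, adjusted p = 0.250) in snrk2.2/3/6. The call in hyl1-2 was lost without WT replicate 1 (edgeR adjusted p = 0.243), WT replicate 2 (0.0668) or hyl1-2 replicate 2 (0.149), which held 1 of its reads.

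The guide miR171a-3p had 16 and 24 reads in WT, 2 and 1 in hyl1-2, and 10 and 3 in the triple mutant. The 3 genotypes did not overlap. Its mean of 9.33 reads was just under the limit for the test. The pooled ratio to WT was 6.44% (95% counting interval 1.28 to 20.2%) in hyl1-2 and 32.2% (15.8 to 61.5%) in snrk2.2/3/6. With the limit lowered to a mean of 5 reads it was tested. Its log2 fold change was -3.84 in hyl1-2 (SE 1.32, edgeR adjusted p = 0.0107), where 47 of 75 sequences passed as lower. In snrk2.2/3/6 it was -1.63 (SE 1.11, edgeR adjusted p = 0.447). Its mean over the 6 libraries reached this limit only with the WT reads, which favours lower values in the mutants.

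The guide shared by MIR171b and MIR171c was read more often in both snrk2.2/3/6 libraries than in both hyl1-2 libraries. miR171b-3p/miR171c-3p had 8 and 12 reads in WT, 0 and 1 in hyl1-2, and 7 and 5 in the triple mutant. The pooled ratio to WT was 4.30% (95% counting interval 0.10 to 26.9%) in hyl1-2 and 59.5% (26.5 to 128%) in snrk2.2/3/6, so that the interval for snrk2.2/3/6 includes the WT level. At the limit of a mean of 5 reads, which it too reached only with the WT reads, its log2 fold change in hyl1-2 was -4.20 (SE 1.85, edgeR adjusted p = 0.0388). In that fit 47 of 75 sequences passed as lower in hyl1-2. In snrk2.2/3/6 its log2 fold change was -0.74 (SE 1.35, edgeR adjusted p = 0.863). The direct difference between the mutants was not past the threshold there (log2 difference -3.46, SE 1.92, edgeR adjusted p = 0.129). miR171c-5p, its passenger strand from MIR171c, had 3 and 1 reads in WT, 1 and 1 in hyl1-2, and 3 and 2 in the triple mutant, at or under the floor in every library. miR171b-5p had 4 reads in all and miR170-3p, which differs from miR171a-3p by C12T and C14T, had 0.

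Both strands of the MIR171a duplex were read. The 5p sequence, to which MIR170 also contributes, made up 74.2% of the reads of both strands in WT replicate 1 (95% Wilson interval 62.1 to 83.5%) and 24 of 48 reads (36.4 to 63.6%) in replicate 2. Over the mutant libraries that share ranged from 44.4 to 83.3%, on 2 to 18 reads. The range within the mutants covers the WT values. For MIR171b and MIR171c the 3p strand took 33 of 48 reads over all libraries, or 68.8% (54.7 to 80.1%).

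Summed over all strands and copies, miR170/miR171 had 75 and 62 reads in WT, 13 and 5 in hyl1-2, and 28 and 16 in the triple mutant. The genotypes did not overlap. The sum was at 11.1% of WT in hyl1-2 (log2 fold change -3.14, SE 0.98, edgeR adjusted p = 0.00445 over 38 families). It was at 31.6% in snrk2.2/3/6 (log2 fold change -1.65, SE 0.91, edgeR adjusted p = 0.272). Its replicates in WT, at 45.9 and 38.0 RPTM, were closer together than those of the 5p strand alone, at 28.1 and 14.7 RPTM. The call in hyl1-2 was lost without WT replicate 1 (edgeR adjusted p = 0.0662) or hyl1-2 replicate 2 (0.0730).

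miR172 was scarce in these rosettes. miR172a/miR172b-3p had 5 and 6 reads in WT, 5 and 3 in hyl1-2, and 3 and 2 in the triple mutant. The mutant libraries were below the WT libraries per genome-matched read, with 2.55 RPTM in hyl1-2 replicate 1 against 3.06 in WT replicate 1. Its pooled ratio to WT was 62.5% (95% counting interval 21.8 to 170.5%) in hyl1-2 and 45.1% (12.3 to 141%) in snrk2.2/3/6, and both intervals include the WT level. The family sum of 30 reads was below the limit for testing. Tested at a mean of 5 reads, its log2 fold change was -1.01 in hyl1-2 (SE 1.36, edgeR adjusted p = 0.518) and -0.81 in snrk2.2/3/6 (SE 1.36, adjusted p = 0.757). The passenger miR172b-5p/miR172e-5p had 6 reads, 0 of them in hyl1-2. The guides miR172c/miR172d-3p and miR172e-3p had 0 reads. They differ from the one detected by 1 base each (G21T and A1G, from the undetected to the detected in the first case and from the detected to the undetected in the second), so the counts separate them only if every base was read correctly.

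miR394 was the second most abundant of these families in WT and the one whose WT libraries differed most. miR394a/miR394b-5p had 151 and 51 reads in WT, 22 and 16 in hyl1-2, and 45 and 14 in the triple mutant. Both WT libraries were above the mutants, though the 31.3 RPTM of WT replicate 2 lay close to the 26.6 RPTM of snrk2.2/3/6 replicate 1. The mean level was 61.8 ± 43.2 RPTM in WT, with 9.96 ± 1.79 in hyl1-2 and 17.7 ± 12.7 in the triple mutant. The log2 fold change was -2.62 (SE 0.93, edgeR adjusted p = 0.0108) in hyl1-2 and -1.80 (SE 0.90, adjusted p = 0.279) in snrk2.2/3/6. The call in hyl1-2 was lost without WT replicate 1 (fold change -1.64, edgeR adjusted p = 0.243), hyl1-2 replicate 1 (0.0736) or hyl1-2 replicate 2 (0.111). The other strand, miR394b-3p, had 0 reads.

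Compared with WT, hyl1-2 thus had less of miR169f-3p, miR170-5p/miR171a-5p and miR394a/miR394b-5p, the 3 of 4 tested sequences that passed. Among all sequences tested, 40 of 59 sequences passed in this direction, which is 67.8%, so the share among the developmental miRNAs is near that of miRNAs at large. Among the 37 tested sequences of other conserved families, 23 passed. The median log2 fold change was -2.75 over the 4 sequences, -2.26 over the 37 and -2.62 over the 59. None of the 4 was higher in hyl1-2 by edgeR, at an adjusted p or at an unadjusted p under 0.05. Of the 4 family sums tested, those of miR169, miR170/miR171 and miR394 passed, against 27 of 38 families in all (71.1%). Without WT replicate 1 or without hyl1-2 replicate 2, 1 of the 4 sequences and 1 of the 4 sums passed. The counts over all features fell in the same fits, to 18 and 20 of 59 sequences and to 13 and 7 of 38 families. With no filter on low counts 0 of 174 sequences passed, and miR169f-3p had an edgeR adjusted p of 0.0700.

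By size alone, the 5 sequences that averaged 10 RPTM or more in WT were all at or below 50% of WT in hyl1-2. Of the 59 sequences of the table at that WT level, 53 were (89.8%). These 59 are not the 59 tested by edgeR, since miR171a-3p is among them and was below the limit for that test. The 5 and the 59 were both chosen by their WT level alone, which favours lower values in the mutants. With 10 RPTM required in both WT libraries, 4 of the 5 were kept and at or below 50% in each mutant. That count was not made over the whole table, so it has no background here. For these 5 the hyl1-2 and WT libraries did not overlap, hyl1-2 being lower, as for 55 of the 59 (93.2%). The 5 lay between 2.91 and 28.0% of WT, with a median of 13.2% beside 14.5% over the 59.

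**Figure D2:**
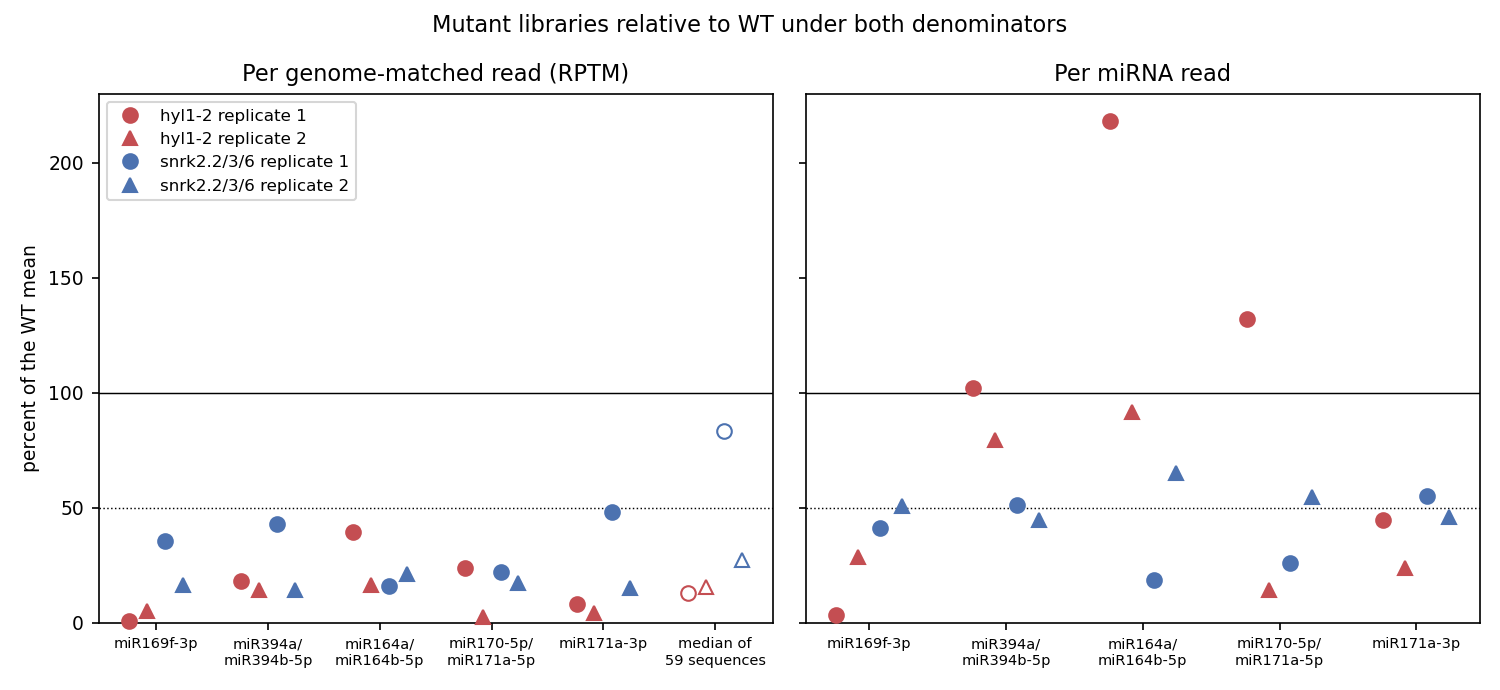
Level in each mutant library as a percentage of the WT mean (y axis, linear) for the 5 sequences with at least 10 RPTM in WT, per genome-matched read (left) and per miRNA read (right). Circles are replicate 1 and triangles replicate 2. Open symbols, on the left only, are the median of the 59 sequences with at least 10 RPTM in WT, and the dotted line is 50%. Per miRNA read, the median over the 59 of the mutant mean was 79.4% in hyl1-2 and 85.3% in snrk2.2/3/6 (not drawn). On the left, snrk2.2/3/6 replicate 1 is between 15.95 and 48.3% for the 5 sequences, where the median of 59 is 83.2%.

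In snrk2.2/3/6 the same 5 sequences were at 18.5 to 31.8% of WT, but none of those tested passed. They were below the middle of the 59 sequences with at least 10 RPTM in WT. The median was 26.0% over the 5, beside 53.3% over those 59 and 55.6% over the 37 of them from other conserved families. All 5 were at or below 50% of WT, against 27 of 59 (45.8%). Set against the WT library of the same replicate number, 4 of the 5 were at or below 50% in both pairs, a count not made over the 59. Without WT replicate 1 the log2 fold change of miR394a/miR394b-5p was -0.82, which is above 50% of WT. For all 5 the higher snrk2.2/3/6 library was under the lower WT library, against 33 of 59 (55.9%). The 2 snrk2.2/3/6 libraries differed in total miRNA, and the 5 sequences were at or below 50% of the WT mean in each of them, against 16 of 59 (27.1%). In replicate 1 alone the median of those 59 stood at 83.2% of WT. There the 5 had values of 15.95% for miR164a/miR164b-5p, 22.1% for miR170-5p/miR171a-5p, 35.5% for miR169f-3p, 43.1% for miR394a/miR394b-5p and 48.3% for miR171a-3p. In that library 17 of 59 were at or below 50% (28.8%). In replicate 2 the 5 ranged from 14.1 to 20.99%, beside a median of 27.4%.

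By edgeR, 0 of the 4 tested sequences and 0 of the 4 family sums passed as lower in snrk2.2/3/6, against 2 of 59 sequences (3.39%) and 1 of 38 families (2.63%). At an unadjusted p under 0.05 all 4 sequences were lower, against 10 of 59 (16.9%). DESeq2 with the same library totals passed 1 of the 4, miR164a/miR164b-5p (adjusted p = 0.0263), and 4 of 59 sequences in all. DESeq2 with its own size factors passed 0 of the 4 as lower, against 4 of 59. Each limma fit passed 0 of the 4, against 2 of 59. Without snrk2.2/3/6 replicate 1, 2 family sums passed by edgeR, those of miR169 (adjusted p = 0.0271) and miR394 (0.0262), against 18 of 38 families in the whole table in that fit. With 2 libraries a group and a biological coefficient of variation of 50%, the values above are descriptions and not calls.

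Compared with each other, the mutants differed in miR169f-3p. It was lower in hyl1-2 than in snrk2.2/3/6 (log2 difference -3.14, SE 1.06, edgeR adjusted p = 0.0128), and the libraries did not overlap. It was 1 of 4 tested sequences to pass, against 27 of 59 (45.8%). The miR169 sum was the 1 of 4 family sums to pass (log2 difference -3.18, edgeR adjusted p = 0.00941), against 18 of 38 (47.4%). The remaining log2 differences were -0.56 (SE 1.07) for miR170-5p/miR171a-5p, 0.60 (SE 0.93) for miR164a/miR164b-5p and -0.83 (SE 0.91) for miR394a/miR394b-5p, with edgeR adjusted p-values of 0.701, 0.639 and 0.471. The call for miR169f-3p was lost without WT replicate 2 (edgeR adjusted p = 0.0510), hyl1-2 replicate 1 (0.262), hyl1-2 replicate 2 (0.0626) or snrk2.2/3/6 replicate 1 (0.0785). Both comparisons with WT share the WT libraries, so their fold changes are not independent.

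**Figure D3:**
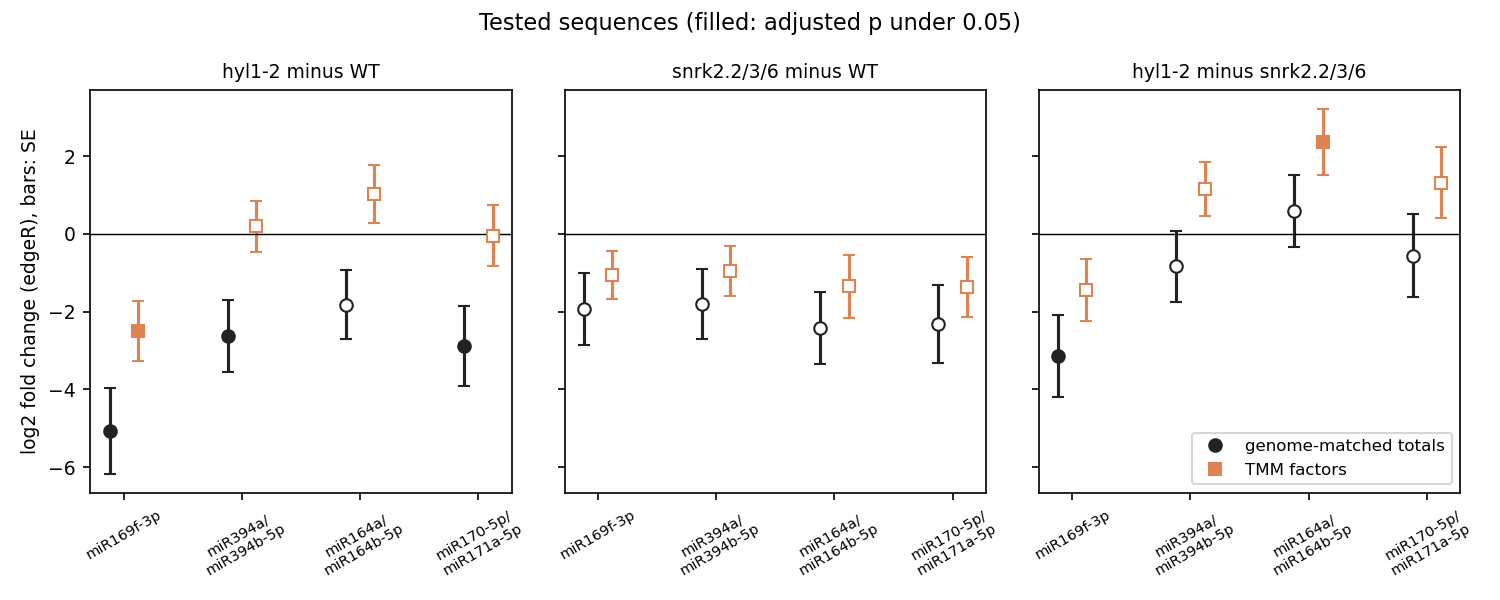
Log2 fold change (y axis) with its SE for the 4 tested sequences in each comparison, by edgeR with genome-matched totals (circles) or with TMM factors made from the miRNA counts (squares). Filled symbols have an adjusted p under 0.05. In hyl1-2 minus WT, miR169f-3p is filled under both, at -5.07 and -2.49, and the other 3 sequences move to between -0.04 and 1.02 under TMM.

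The values in hyl1-2 moved with the denominator. Most tested miRNAs were lower there, and scaling to the miRNA reads themselves removes a shared fall. With TMM factors the median log2 fold change of the 59 tested sequences moved from -2.62 to 0.11 in hyl1-2, and from -0.72 to 0.07 in snrk2.2/3/6. Relative to that, miR169f-3p was still lower in hyl1-2 (log2 fold change -2.49, edgeR adjusted p = 0.00985). miR164a/miR164b-5p (1.02, adjusted p = 0.295) and miR394a/miR394b-5p (0.19, 0.825) had values above 0, and miR170-5p/miR171a-5p was at -0.04 (0.971). In snrk2.2/3/6 all 4 kept a negative value under TMM, from -1.36 to -0.96, none past the threshold. Between the mutants, miR164a/miR164b-5p then was higher in hyl1-2 by 2.37 on the log2 scale (edgeR adjusted p = 0.0325). In all, 10 of the 59 sequences passed in that direction. miR169f-3p was no longer past the threshold (-1.43, edgeR adjusted p = 0.158).

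As a share of miRNA reads, the 25 sequences together were at 1.30% (95% Wilson interval 1.18 to 1.42%) and 0.966% (0.862 to 1.08%) in WT, and at 0.938% (0.740 to 1.19%) and 0.615% (0.453 to 0.833%) in hyl1-2. In snrk2.2/3/6 they were at 0.472% (0.400 to 0.558%) and 0.645% (0.508 to 0.818%), both below both WT libraries. miR169 took 0.417 and 0.427% of miRNA reads in WT and 0.0140 and 0.120% in hyl1-2. miR164 took 0.208 and 0.141% in WT, 0.364 and 0.135% in hyl1-2, and 0.0310 and 0.0963% in the triple mutant. By this measure miR164 was below both WT libraries in both snrk2.2/3/6 libraries, on 9 and 10 reads. The 95% Wilson interval of snrk2.2/3/6 replicate 2 (0.0523 to 0.177%) overlapped those of WT (0.165 to 0.262% and 0.105 to 0.190%). In hyl1-2, replicate 1 was above both WT libraries and replicate 2, on 9 reads, was close to WT replicate 2. By this scaling 2 of the 5 sequences with at least 10 RPTM in WT were at or below 50% of WT in hyl1-2, miR169f-3p and miR171a-3p. Over the 59 sequences at that WT level, 22 were (37.3%). In snrk2.2/3/6 4 of the 5 were, against 11 of 59 (18.6%), with miR171a-3p at 50.6%.

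**Figure D4:**
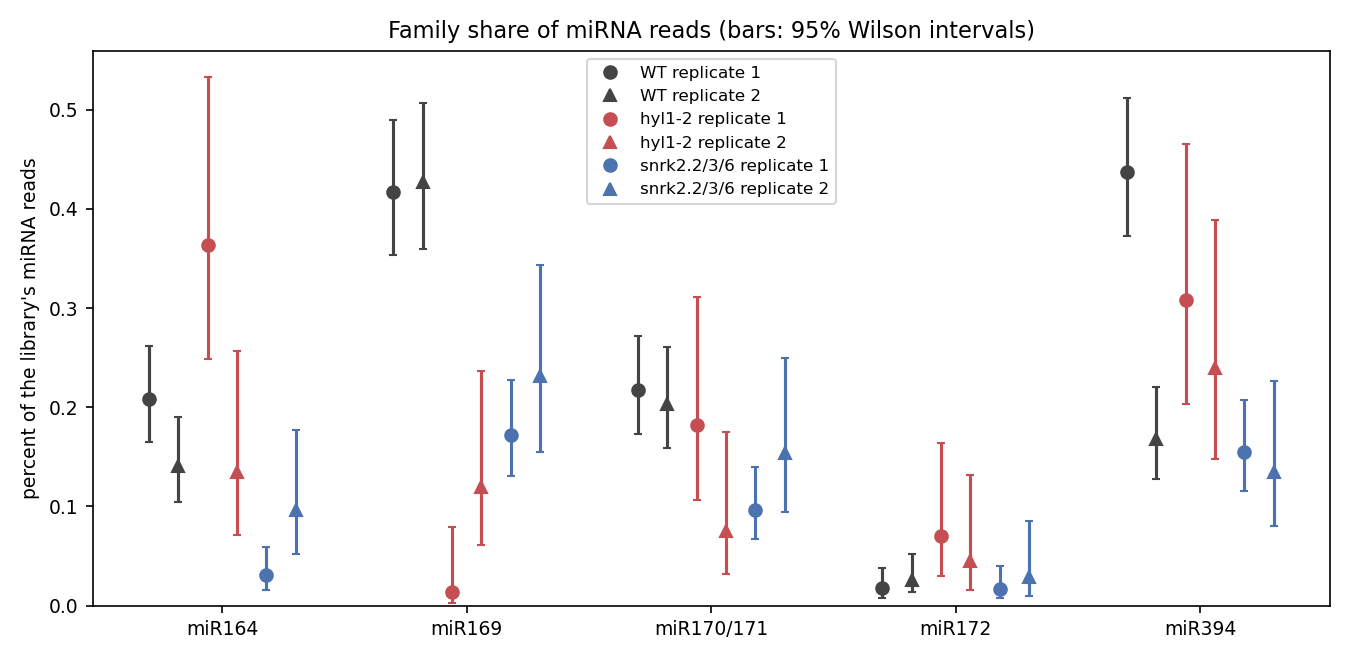
Share of a library's miRNA reads taken by each family, in percent (y axis, linear from 0), with 95% Wilson intervals. Circles are replicate 1, triangles replicate 2, and colours mark the genotypes. miR169 is at 0.417 and 0.427% in WT and at 0.0140 and 0.120% in hyl1-2, while miR394 differs within WT, at 0.437 and 0.168%.

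Other miRNAs had similar patterns over the 6 libraries. Likeness was measured as the root mean square difference of log2(RPTM + 1) after centring each sequence, over the 55 other sequences tested. The nearest to miR169f-3p were miR3932b-5p (0.568) and miR159a (0.686). The nearest to miR394a/miR394b-5p were the shared miR166 3p guide (0.483) and miR157c-3p (0.484), and the nearest to miR164a/miR164b-5p were miR390a-5p/miR390b-5p (0.499) and the miR166 guide (0.627). miR3932b-5p had 520 and 524 reads in WT, 17 and 30 in hyl1-2, and 219 and 39 in the triple mutant. miR390a-5p/miR390b-5p, which triggers the tasiRNAs of TAS3, had 38 and 34 reads in WT, 13 and 9 in hyl1-2, and 15 and 8 in the triple mutant. These are descriptions over libraries that share their depth and genotype.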

How the data were processed

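Small RNA libraries of rosette leaves were sequenced on an Illumina HiSeq instrument. After adaptor trimming, the authors retained 18- to 30-nt reads that were then aligned with the TAIR10 genome. Those with the exact sequence of a mature miRNA in miRBase (release 21) were counted. The mapping tool is not given in the sources used here. The deposited counts are raw reads per mature sequence. RPTM is a deposited signal for which the authors divided each count by the genome-matched reads of its library and multiplied it by 10000000. Library totals were recovered from counts and RPTM.

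Genotypes and replicate numbers came from the sample titles. Replicates of each genotype differed beyond sampling noise (chi-square test), so each library counted as 1 replicate. Counts were tested with edgeR 4.0.16 (glmQLFit, glmQLFTest; R 4.3.3) in 1 model of the 6 libraries without covariates beside genotype. Library sizes were the genome-matched totals, without TMM factors, with a minimum mean of 10 reads and Benjamini-Hochberg adjustment over the 59 sequences or, for sums per family, 38 families. The script was tested on simulated data. Sequences with at least 10 reads in all were named, with the 2 most similar other sequences for the 3 most abundant members. Counting intervals of ratios are exact conditional binomial intervals. Alternatives used TMM, total miRNA counts, DESeq2 1.42.0, limma 3.58.1 on log2(RPTM + 1) or log2(RPTM + 0.5), other filters, only the genotypes compared, a replicate block and leaving out each library. Other steps ran in Python 3.11.15 with scipy 1.17.1, numpy 2.4.6, pandas 2.3.3 and matplotlib 3.10.9. Positions, hairpins and target sites were read from TAIR10.1 with RefSeq annotation. Sequences, lists and tests were chosen with earlier results of these data known.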

Additional observations from a re-analysis of the deposited data

Results flagged for a closer look

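miR169f-3p differed between the mutants by a direct test, with a log2 difference of -3.14 for hyl1-2 against the triple mutant (edgeR adjusted p = 0.0128). It was lower in both hyl1-2 libraries than in both snrk2.2/3/6 libraries, and over the 18 settings its adjusted p ranged from 0.00162 to 0.262 and its log2 difference from -5.22 to -1.43. With 2 libraries per genotype no single library was tested for standing apart.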

How the results depend on the processing

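In hyl1-2 against WT, 3 tested sequences and 3 family sums were lower. TMM factors, total miRNA counts as library sizes or DESeq2's own size factors left 1 sequence and 1 sum each. Over the whole table these 3 scalings left 15, 17 and 10 of 59 sequences and 11, 11 and 9 of 38 families. With no filter on low counts, 0 of 174 sequences and 0 of 103 families passed. A filter at a mean of 5 reads gave 5 sequences, beside 47 of all 75 tested. Leaving out one library gave log2 fold changes of -2.58 to -1.33 for miR164a/miR164b-5p and -7.16 to -4.24 for miR169f-3p. It gave -5.12 to -2.055 for miR170-5p/miR171a-5p and -3.20 to -1.64 for miR394a/miR394b-5p. Scaled to miRNA counts, 2 sequences and not 5 were at or below 50% of WT. Under TMM, total miRNA counts and DESeq2's own factors, miR164a/miR164b-5p turned to 1.02, 0.63 and 0.78, and miR394a/miR394b-5p turned to 0.19 under TMM. In snrk2.2/3/6 against WT, 1 sequence and 1 sum passed in place of 0 by DESeq2 with genome-matched totals. In that fit 4 of all 59 sequences and 3 of all 38 families passed. Without snrk2.2/3/6 replicate 1 the sums had log2 fold changes of -2.48 (miR164), -2.48 (miR169), -2.06 (miR170/miR171) and -2.81 (miR394). Every fold change of the 4 sequences in snrk2.2/3/6 stayed negative in the settings run. Over the 18 settings they ranged from -2.73 to -1.24 for miR164a/miR164b-5p and from -2.60 to -1.03 for miR169f-3p. The ranges were -2.71 to -1.26 for miR170-5p/miR171a-5p and -2.81 to -0.82 for miR394a/miR394b-5p, the last value being without WT replicate 1.

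Between the mutants, the 1 sequence and 1 sum lower in hyl1-2 became 0 under those 3 scalings, beside 8, 13 and 8 of all 59 sequences. They also became 0 with no filter, beside 0 of 174 sequences, and with only the genotypes compared, beside 12 of 59. Leaving out one library gave -5.22 to -2.30 for miR169f-3p. The 3 scalings gave 1 sequence higher in hyl1-2, miR164a/miR164b-5p, in place of 0. Over the whole table each gave 10 of 59 in place of 0. They turned miR170-5p/miR171a-5p to 1.32, 1.03 and 0.98 and miR394a/miR394b-5p to 1.151, 0.90 and 0.95, and the miR170/miR171 sum to 0.048 (TMM) and 0.10 (total miRNA counts). Leaving out one library gave -0.16 to 1.09 for miR164a/miR164b-5p (below 0 without hyl1-2 replicate 1), -2.81 to 0.26 for miR170-5p/miR171a-5p (above 0 without hyl1-2 replicate 2) and -1.41 to 0.19 for miR394a/miR394b-5p (above 0 without snrk2.2/3/6 replicate 1). The cause was not tested, except that scaling to miRNA reads removes a fall shared by them. Where a genotype was left with 1 library, it was assumed to vary like the others.

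With the replicate block, 3 sequences and 4 sums were lower in hyl1-2, beside 38 of all 59 sequences and 29 of all 38 families. The log2 fold change of miR169f-3p was then -5.09. Same-numbered libraries did not deviate together (r = 0.29 for WT and hyl1-2, -0.30 for WT and snrk2.2/3/6, -0.18 for the mutants), so the numbers were not taken as pairs. A crossed block, chosen after seeing the data, gave 4 sequences and 3 sums, beside 42 of all 59 sequences and 26 of all 38 families. Depth limits the rest, since 21 of the 25 sequences had a mean under 10 reads.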
